A study of Homo sapiens with 32 samples.

Results

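To describe the state of JUNB-edited cells without added TGFβ1, the 8 libraries treated with solvent were taken from a series of 32 RNA-seq libraries of MCF10A cells, an immortalized, non-tumorigenic human mammary epithelial cell line. CRISPR/Cas9 had been used to edit JUNB in clones 1 and 65 (mut), clones 27 and 2 were labelled JUNB WT, and each clone was sampled in 2 replications, which gave 4 mut and 4 WT libraries. All 8 libraries are labelled as solvent treated at time 0 h, and the study describes its controls as parallel plates kept in solvent for 72 h. The solvent was BSA in PBS, and both genotypes grew in the same medium with horse serum, EGF, hydrocortisone, cholera toxin and insulin. Per the study, all clones grew from single cells, and a long stretch of JUNB is missing in clones 1 and 65. A smaller polypeptide that reacts with a JUNB antibody was still seen there at a low level, which the study takes as most likely a JUNB derivative, so that the clones may not be a plain null. With 2 clones a genotype, an effect of the edit and a difference that 2 clones share by chance cannot be told apart. The limma-voom p-values rest on a spread estimated over all 32 libraries, treated ones included. In each genotype and treatment state that spread lies between 4 libraries of 2 clones.

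JUNB is a subunit of AP-1, a transcription factor that binds DNA as a dimer of a JUN-family protein with another JUN, a FOS, an ATF or a MAF family protein. AP-1 dimers recognise the motif TGANTCA and respond to growth factor and stress signals through MAP kinases. In epithelial cells AP-1 is known for its control of keratins, cornified envelope genes, matrix proteases and cytokines, and JUNB itself is a regulator of squamous differentiation and of the response to TGFβ.

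In solvent, 1887 of 14865 tested genes were differentially expressed genes (DEGs) between mut and WT libraries, at a limma-voom adjusted p-value under 0.05. This is a share of 12.7%, with 948 genes higher in mut cells (6.38%) and 939 lower (6.32%). Among the genes highest above WT were those for the adhesion protein CADM3, the chemokine-binding receptor ACKR1, the scaffold NEDD9, the growth factor-binding protein IGFBP2 and the neurotrophin receptor NGFR. Among the lowest were GRAMD1B, the axon guidance ligand SEMA3A, the WNT inhibitor DKK1, the cornified envelope protein SPRR1B and the hyaluronan-degrading protein CEMIP. Called genes of a squamous differentiation list were all lower in mut cells (9 of 30 tested), whereas called AP-1 family genes were all higher (6 of 18 tested), and 0 of 26 cell cycle genes were called.

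Read counts are given as CPM, counts per 1000000 counts of the library, in the library order 2-1, 2-2, 27-1 and 27-2 for WT and 1-1, 1-2, 65-1 and 65-2 for mut, where the clone stands before the hyphen and the replication after it. Means carry the SD over 4 libraries, and log2 fold changes are mut minus WT with their SE. In a bulk library, a smaller share of cells that express a gene and less of its RNA per cell cannot be told apart.

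Where a promoter sequence was at hand, the named genes were searched for the AP-1 motif, because the edited protein acts through it. RefSeq promoters (GRCh38.p14) were matched for 21 of the 29 genes named by rule, and the 250 bases before the start site held TGANTCA, which reads alike on both strands, in 3 of them. All 3 genes were lower in mut cells. The 21 matched genes are not split by direction here, so this shows no link of the motif with direction. SPRR1B had 2 copies, and its first window lies at chr1:153031038-153031092 and its second at chr1:153031068-153031122, both on the plus strand. The TMEM156 window lies at chr4:39032460-39032514 and the SLITRK6 window at chr13:85799420-85799463, both on the minus strand. The windows are written 5′ to 3′ with the motif in capitals.
SPRR1B first copy: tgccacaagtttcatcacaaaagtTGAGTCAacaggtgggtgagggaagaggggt
SPRR1B second copy: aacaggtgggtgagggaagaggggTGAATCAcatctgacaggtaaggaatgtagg
TMEM156: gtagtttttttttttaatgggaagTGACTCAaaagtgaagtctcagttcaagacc
SLITRK6: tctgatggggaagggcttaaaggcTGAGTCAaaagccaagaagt
In SPRR1B the first base of the motif lies 141 and 111 bases before the start site, in TMEM156 81 bases and in SLITRK6 20 bases. These are the RefSeq start sites of the promoter table, and those of TMEM156 and SLITRK6 lie inside the gene as GENCODE annotates it. Of 11799 tested genes with a matched promoter, 4.39% held the motif in this window, and 2.77% held the related CRE motif TGACGTCA. A promoter was matched for 77.4% of the higher DEGs, 80.8% of the lower DEGs and 79.4% of all tested genes. With this incomplete matching, a comparison of motif shares between DEGs and other genes is not given. A match of letters is a description and shows no binding.

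The 8 libraries held 39702412 (WT 2-2) to 49722991 (mut 65-2) counts. In a principal component analysis of these libraries, PC1 held 35.1% and PC2 21.0% of the variance. The 4 mut libraries had PC1 scores of 17.9 to 42.5 and the WT libraries scores of -78.7 to -14.8, so the genotypes did not overlap on PC1. WT 27-2 stood apart from the other WT libraries, with a root mean square log2 difference of 0.914 to 0.933 from each of them, against 0.613 to 0.713 among the other 3. For mut 1-2 the distances of 0.622 to 0.706 overlapped those of 0.552 to 0.632 among the other mut libraries, but its PC2 score of 30.1 lay above their 6.29 to 12.5. Both libraries shared high values of FN1, which encodes fibronectin. FN1 was at 580.1, 329, 508 and 1548 CPM in WT and at 249, 1413, 373 and 272 CPM in mut libraries, so that WT 27-2 and mut 1-2 each exceeded the remaining libraries of their group by more than the spread among those. FN1 was no DEG (log2 fold change -0.52 ± 0.44, adjusted p-value 0.498). The main counts that follow are therefore also given without WT 27-2 and mut 1-2, a fit that had 1093 DEGs (516 higher, 577 lower). Of the libraries left out one at a time, mut 65-2 lowered the count most, to 1246.

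**Figure D1:**
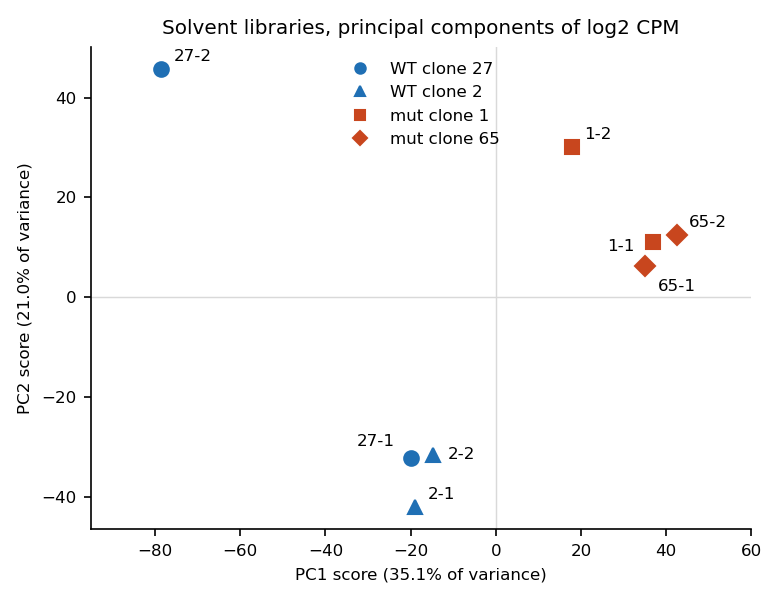
Principal component scores of the 8 solvent libraries, computed from log2 CPM (x axis PC1, y axis PC2, each with its percentage of the variance). Points are single libraries, with blue for WT and orange for mut clones. WT 27-2 lies at -78.7 on PC1, away from the other 3 WT libraries, and mut 1-2 lies at 17.9, nearest to WT among the mut libraries.

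The labelled cell type was checked by markers. Basal mammary epithelial markers such as KRT5 summed to 12385 to 14260.2 CPM in WT and 15458 to 17181 CPM in mut libraries. Of the 10 markers 3 were DEGs (30%, against 12.7% of all genes). Of hormone receptor-type luminal markers 4 of 6 tested were DEGs (66.7%, with 2 higher and 2 lower). Their sums were 134 to 180.2 CPM in WT and 163 to 298 CPM in mut libraries. Fibroblast markers (4 of 8 tested, 0 called) summed to 15.3 to 22.1 CPM in WT and 15.3 to 25.0 CPM in mut libraries. Contractile myoepithelial markers (4 of 5 tested, 0 called) summed to 23.4 to 27.7 and 19.7 to 23.7 CPM. Of immune markers CD14 and CD68 passed the count filter and both were called, in opposite directions, while the defining PTPRC and CD3E did not pass it. Of endothelial markers KDR alone was tested, and it was higher. The means in WT and mut cells were 14.8 and 25.7 CPM for CD14, 12.3 and 6.57 CPM for CD68 and 11 and 23.9 CPM for KDR, and their part in the results was not tested. Across chromosomes, the median log2 fold change lay between -0.0495 and 0.0158.

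The agreement of the clones was examined next. Each mut clone was set against the mean of both WT clones, so the comparisons share the WT libraries. Clone 1 had 1246 and clone 65 had 1494 called genes, and 818 of the 1887 DEGs (43.3%) were called in both in the same direction. These both-clone DEGs were 5.5% of all tested genes, with 453 higher (3.05%) and 365 lower (2.46%) in mut cells. A further 256 DEGs were called with clone 1 alone and 376 with clone 65 alone. The count of both-clone DEGs fell under every left-out library, by unequal amounts, of which the largest falls are given here. It was 336 without mut 1-1, 434 without mut 1-2, 378 without mut 65-2, 527 without WT 2-1, and 301 without WT 27-2 and mut 1-2.

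Agreement can also be read from the values. In 1243 genes all 4 mut libraries lay above all 4 WT libraries (8.36% of those tested), and in 1381 genes they lay below (9.29%). Of the DEGs, 1573 had no overlap between the groups. The means of both mut clones lay on the same side of both WT clones in 1884 of the 1887 DEGs and in 53.6% of all tested genes. The DEGs were called from these same libraries, so their counts follow in large part from the call and are no test of agreement. Clones of the same genotype were also compared with each other. Between mut clones 65 and 1, 42 genes were called (0.283%), and between WT clones 27 and 2, 80 genes (0.538%), although these comparisons rest on 2 libraries a side. Without WT 27-2 and mut 1-2 the counts were 24 and 7. Leaving out any 1 of the 4 mut libraries gave 16 to 22 genes between mut clones, and any 1 of the 4 WT libraries 10 to 33 between WT clones.

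Comparisons without a shared library were made by pairing each mut clone with another WT clone. Over 12500 genes with a mean of at least 1 CPM, the log2 difference of clone 1 minus clone 27 correlated with that of clone 65 minus clone 2 (Pearson r = 0.659 across genes, which are not independent replicates). With the pairing crossed, r was 0.601. Differences of at least 2-fold in both pairs were found in 235 genes, 228 of them with the same sign, and in 226 genes with the crossed pairing, 218 of them with the same sign. The r values share the scaling by library total and carry no test.

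**Figure D2:**
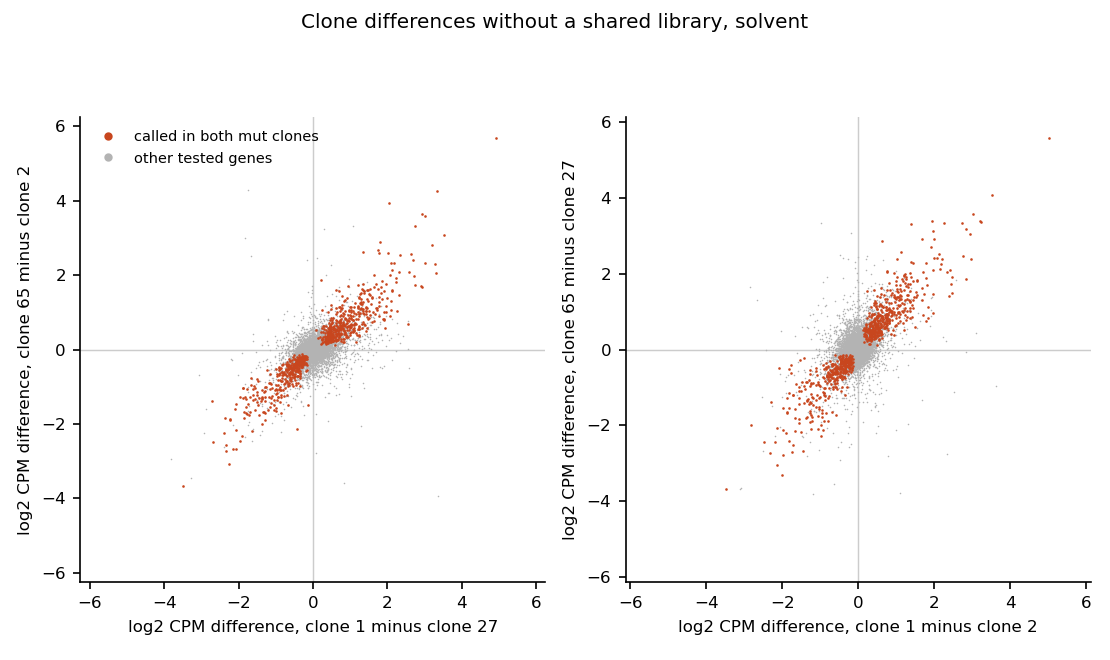
Log2 CPM differences (with 0.5 CPM added) between a mut and a WT clone for 12500 genes, each axis using other libraries than the other axis. The left panel sets clone 1 minus clone 27 against clone 65 minus clone 2 (r = 0.659), the right panel the crossed pairing (r = 0.601). Orange points are the genes called in both mut clones, grey points all others.

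The edited gene itself gave no check of the labels. JUNB (GRCh38 chromosome 19, 12791486 to 12793315, plus strand) was at 117, 90.0, 89.7 and 94 CPM in WT and at 69.2, 77.5, 128 and 172 CPM in mut libraries. Both clone 1 libraries lay below every WT library and both clone 65 libraries above, so the mut clones fell on either side of WT. The log2 fold change was 0.10 ± 0.34 (adjusted p-value 0.885, exact two-sided permutation test p = 0.686, where 0.0286 is the smallest possible). The counts cover the whole gene and do not show which part of the transcript was left, and HOOK2 overlaps JUNB on the opposite strand.

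Other AP-1 genes were higher in mut cells where called. Of 18 tested family members, 6 were DEGs (33.3%, against 12.7% of all genes), all higher, 3 of them in both clones. Calls in both clones, here and in the lists below, stand against 5.5% of all tested genes. The median log2 fold change of the list was 0.24, against -0.0075 over all genes. Without WT 27-2 and mut 1-2, 3 were called. JUN, the partner that forms the classical AP-1 dimer with FOS, was at 42.4, 32.4, 45.4 and 45.6 CPM in WT and 77.8, 71.9, 72.9 and 92 CPM in mut libraries. No mut library fell to the WT range, and the log2 fold change was 0.93 (both clones called, 0.86 for clone 1 and 0.99 for clone 65). FOSL2, a FOS-family partner, was at 149, 158, 154 and 106 CPM in WT and 242, 243, 194 and 255 CPM in mut libraries, with a log2 fold change of 0.73 ± 0.13 (adjusted p-value 0.000302). Its lowest WT value was that of WT 27-2, and without it the WT range would have been 149 to 158 CPM.

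JUND, the third JUN-family member, was at 73.3 ± 5.81 CPM in WT and 90.5 ± 4.47 CPM in mut cells (SD, n = 4), a small difference of 0.30 ± 0.08 log2. ATF4, a stress-responsive partner, moved from 539 ± 21.1 to 683 ± 84.9 CPM, JDP2, a repressing partner, from 21.3 ± 1.99 to 32.9 ± 7.24 CPM, and MAFF, a small MAF protein, from 51.5 ± 7.11 to 68.9 ± 7.65 CPM. All 4 had mut libraries above all WT libraries. Their calls were not stable, since leaving out 1 library ended the call of JUND (without mut 1-1 or WT 27-2), of ATF4 (without mut 65-2), of MAFF (without mut 65-2 or WT 2-2) and of JDP2 (without any 1 library other than mut 65-1 and WT 2-2), with adjusted p-values of up to 0.0739, 0.0763, 0.0889 and 0.143. FOS was at 29.5 ± 5.53 CPM in WT and 35.3 ± 3.8 CPM in mut cells, with overlapping libraries (adjusted p-value 0.268).

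The named genes were then examined by role, beginning with adhesion and the cell surface. They were the 14 highest and 14 lowest DEGs with a mean of at least 10 CPM in the group where they were higher, no overlap between groups and calls in both clones, of 330 higher and 286 lower genes that met these conditions. All 28 kept their direction and their call in every alternative setting tried. Since the rule used this contrast, their values describe and do not test. Of 93 genes selected for description 19 overlap another annotated gene. The library kit does not mark strand, so that reads of such pairs cannot be told apart.

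CADM3, an immunoglobulin-type cell adhesion molecule known mainly from neurons, had the largest rise of the 14. CADM3 (chromosome 1, 159171609 to 159203313, plus strand) was at 1.13, 2.14, 0.839 and 3.26 CPM in WT and 68.5, 66.7, 109 and 102 CPM in mut libraries. Every mut library lay far above every WT library. The log2 fold change was 5.76 ± 0.59 (adjusted p-value 7.8e-08), and the difference was called at 6, 24 and 72 h of TGFβ1 as well, at 5.46, 4.83 and 4.01. ACKR1 (chromosome 1, 159204875 to 159206500), an atypical receptor that binds chemokines without signalling through G proteins, is the next tested gene downstream of CADM3. ACKR1 was at 0.135, 0.453, 0.252 and 0.577 CPM in WT and 8.97, 8.13, 15.9 and 13.3 CPM in mut libraries. AIM2, which overlaps CADM3 on the opposite strand, had mean values of 0.0868 CPM in WT and 0.0737 CPM in mut cells, and the upstream neighbour IFI16 had 232 and 241 CPM, neither of them a DEG. Further downstream, DUSP23 (means of 50.8 CPM in WT and 99.7 CPM in mut cells) and IGSF9 (19.0 and 34.1 CPM) were DEGs and higher. CRP was also called higher, at 0 and 0.169 CPM. TAGLN2, which lies between DUSP23 and IGSF9, had 541 and 548 CPM without a call.

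NGFR, the low-affinity neurotrophin receptor and a marker of basal epithelial cells, was at 2.93, 4.53, 5.37 and 3.36 CPM in WT and 17.9, 19.6, 20.6 and 28.9 CPM in mut libraries, a log2 fold change of 2.44 ± 0.28. MAP2, a microtubule-associated protein of neurons, was at 11.6, 18.3, 26.2 and 9.68 CPM in WT and 101, 115, 49.2 and 71 CPM in mut libraries, with higher values in clone 1 than in clone 65. STAC2, a protein that binds voltage-gated calcium channels, was at 4.68, 4.68, 5.6 and 2.36 CPM in WT and 55.8, 39.9, 50.3 and 37.7 CPM in mut libraries, at 3.43 log2. All 3 were higher in every mut than in every WT library.

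NEDD9, a scaffold of integrin and focal adhesion signalling, was at 1.98, 1.94, 3.44 and 4.77 CPM in WT and 15.8, 21.4, 35 and 39.6 CPM in mut libraries (log2 fold change 3.22 ± 0.46, adjusted p-value 1.61e-05). Clone 65 lay above clone 1, and the difference between these clones was itself called. The difference between mut and WT was 1.12 log2 after 6 h of TGFβ1, 0.22 after 24 h and 0.08 after 72 h, and no call was made at the last 2 times. RIPOR2 was at 10.8, 15.7, 15.5 and 6.2 CPM in WT and 109, 83.9, 98.2 and 89.5 CPM in mut libraries. Its difference was 3.05 log2 in solvent and 5.79 at 72 h.

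Among secreted proteins, IGFBP2, which binds insulin-like growth factors, was at 45.7, 66.6, 54.9 and 33.2 CPM in WT and 226, 215, 331 and 313 CPM in mut libraries, a log2 fold change of 2.45 ± 0.22 (adjusted p-value 4.95e-09). All mut values lay well above all WT values, and clone 65 lay above clone 1. CHI3L1, a secreted chitinase-like glycoprotein, was at 2.64, 2.49, 2.18 and 0.351 CPM in WT and 18.4, 11, 13.7 and 15.6 CPM in mut libraries, with the lowest value in WT 27-2. BGN, the matrix proteoglycan biglycan, was at 3.72, 5.64, 2.03 and 2.01 CPM in WT and 21, 17, 16.2 and 15.3 CPM in mut libraries, and it overlaps HAUS7 on the opposite strand. The other higher genes were enzymes and a channel-type protein. IP6K3 (inositol hexakisphosphate kinase) was at 1.94, 1.54, 4.32 and 1.05 CPM in WT and 18.5, 22.3, 21.2 and 35.1 CPM in mut libraries. ACSL5 (long-chain fatty acid activation) was at 2.05, 2.07, 2.45 and 2.06 CPM in WT and 16.8, 16.7, 15.1 and 14 CPM in mut libraries. CYP4B1, a cytochrome monooxygenase, was at 12, 7.23, 18.1 and 2.31 CPM in WT and 47.9, 37.7, 37.6 and 45 CPM in mut libraries. CLIC3, of the chloride intracellular channel family, averaged 2.81 ± 0.736 CPM in WT and 15.4 ± 5.78 CPM in mut cells. ACSL5 overlaps ZDHHC6 on the opposite strand.

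Of the genes lower in mut cells, several encode secreted signals. DKK1, a secreted inhibitor of WNT signalling, was at 87.6, 54.7, 87.6 and 163 CPM in WT and 22.3, 28.4, 25.9 and 13 CPM in mut libraries, a log2 fold change of -2.09 ± 0.35 (adjusted p-value 0.00013). The highest value of DKK1 was that of WT 27-2, but the lowest WT value was still above all mut values. SEMA3A, a secreted semaphorin that repels axons, was at 21.1, 16.4, 15.5 and 18.5 CPM in WT and 2.98, 2.92, 2.9 and 2.59 CPM in mut libraries. STC1, the glycoprotein hormone stanniocalcin, was at 17.5, 9.19, 11.9 and 10.1 CPM in WT and 3.05, 2.67, 3.28 and 3.64 CPM in mut libraries.

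Genes of hyaluronan and heparan sulfate followed. HS3ST3A1, a heparan sulfate sulfotransferase, was at 11.3, 8.41, 8.31 and 13.2 CPM in WT and 1.08, 3.8, 1.09 and 1.09 CPM in mut libraries. In mut cells 3 libraries lay within 1.08 to 1.09 CPM and mut 1-2 at 3.8 CPM. CEMIP, which takes part in hyaluronan breakdown, was at 16.4, 10.0, 11.5 and 10.5 CPM in WT and 2.03, 2.4, 3.56 and 4.22 CPM in mut libraries. HAS3, a hyaluronan synthase from the matrix list, was likewise lower, at 16.9, 12.4, 19.7 and 13.8 CPM in WT and 3.43, 3.68, 5.24 and 4.63 CPM in mut libraries, a log2 fold change of -1.89 ± 0.21 (adjusted p-value 2.77e-07).

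Lipid, membrane and cytoskeletal genes made up most of the rest. GRAMD1B, a carrier of cholesterol between membranes, had the largest fall of the 14, from 19.4, 12.4, 18.5 and 18.4 CPM in WT to 2.79, 4.33, 1.33 and 1.49 CPM in mut libraries, a log2 fold change of -2.96 ± 0.43. Clone 65 was lower than clone 1. MARCKSL1, an actin-regulating membrane protein, was at 17, 15.4, 26.8 and 31.5 CPM in WT and 2.31, 6.63, 8.08 and 4.24 CPM in mut libraries. ELAVL2, an RNA-binding protein of the HU family, was at 15.7, 18.3, 17.6 and 23 CPM in WT and 3.7, 5.3, 3.43 and 3.3 CPM in mut libraries. SLITRK6, a transmembrane protein with leucine-rich repeats whose promoter window is shown above, was at 44.8, 34.5, 23.4 and 62.3 CPM in WT and 8.17, 17.5, 8.92 and 7.62 CPM in mut libraries. TMEM156, the other gene of this group with the motif, averaged 11.1 ± 4.62 CPM in WT and 2.19 ± 0.99 CPM in mut cells. FAM167A moved from 35.4 ± 9.54 to 5.39 ± 1.48 CPM and TMCC3 from 13.4 ± 2.46 to 3.54 ± 0.67 CPM.

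Genes of squamous differentiation build the cornified envelope, the cross-linked protein shell of stratified epithelia. Of 30 tested genes of this list 9 were DEGs (30%, against 12.7% of all genes). All 9 were lower in mut cells, 4 of them in both clones. The list median was -0.66 log2. Without WT 27-2 and mut 1-2, 5 were called, all lower. SPRR1B, an envelope precursor with the pair of motif copies shown above, was at 55.6, 36.8, 50.2 and 15.6 CPM in WT and 9.33, 3.77, 6 and 7.5 CPM in mut libraries, a log2 fold change of -2.50 ± 0.50. The lowest WT value, in WT 27-2, stayed above all mut values. SPRR1A was at 8.09, 4.43, 9.82 and 4.89 CPM in WT and 2.01, 0.314, 0.863 and 0.905 CPM in mut libraries. SPRR3 was at 9.48, 3.95, 9 and 4.24 CPM in WT and 0.106, 0.0898, 0.0421 and 0 CPM in mut libraries, where 3 counts correspond to 0.0603 to 0.0674 CPM. The SPRR genes resemble each other in sequence, so reads could have been assigned to a relative.

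Protease inhibitors of the same list moved likewise. SERPINB3 was at 3.87, 2.12, 5.43 and 2.26 CPM in WT and 0.466, 0.27, 0.505 and 0.362 CPM in mut libraries, with a near-identical relative in SERPINB4. A2ML1 was at 41, 7.78, 62.9 and 14.1 CPM in WT and 3.13, 0.764, 1.68 and 2.13 CPM in mut libraries. The WT values of A2ML1 spread widely, and its call was lost when any 1 of the 4 mut libraries was left out (adjusted p-value up to 0.0708). SBSN, a secreted protein of suprabasal keratinocytes, averaged 12.3 ± 8.24 CPM in WT and 1.85 ± 0.634 CPM in mut cells. IVL, the envelope protein involucrin, averaged 7.87 ± 5.21 and 2.61 ± 0.719 CPM, with overlapping libraries and no call (adjusted p-value 0.376). Summed over the list, WT libraries ranged from 275 to 1586 CPM and mut libraries from 853 to 1310.5 CPM, so that the summed levels overlapped although the called genes were all lower.

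Keratins, the intermediate filament proteins of epithelia, were higher where called. The list headed simple epithelial keratins also held KRT80, so its count is not one of simple keratins alone. Of 7 tested genes of this list 4 were DEGs (57.1%, against 12.7% of all genes), all higher and 3 of them in both clones. The count was 4 without WT 27-2 and mut 1-2. KRT80 was at 21.1, 16, 51.3 and 33.1 CPM in WT and 119, 92.8, 127 and 107 CPM in mut libraries, a log2 fold change of 1.99 ± 0.35 (adjusted p-value 0.000194). KRT8 was at 117, 86.4, 126 and 107 CPM in WT and 199, 145, 217 and 152 CPM in mut libraries, and its filament partner KRT18 at 147, 139, 157 and 159.7 CPM in WT and 203, 169, 229 and 191 CPM in mut libraries. KRT8 and KRT18 overlap each other on opposite strands in the annotation, and the call of KRT18 was lost without any 1 library other than mut 1-2 (adjusted p-value up to 0.118). Of 8 basal keratins KRT17 alone was called (12.5%, against 12.7% of all genes). KRT17 was at 1539, 1059, 1755 and 1075 CPM in WT and 2729, 2383, 3125 and 3097 CPM in mut libraries. KRT5 was at 6261 ± 694 CPM in WT and 7461 ± 626 CPM in mut cells (adjusted p-value 0.0804) and KRT14 at 364 ± 127 and 479.8 ± 121 CPM (adjusted p-value 0.387).

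Cell junction genes hold neighbouring epithelial cells together. Of 20 tested desmosome and tight junction genes 3 were DEGs (15%, against 12.7% of all genes), all higher, and the same number was called without WT 27-2 and mut 1-2. PKP2, a desmosomal plaque protein, was at 107, 121, 110.3 and 99.2 CPM in WT and 176, 168, 160.2 and 169 CPM in mut libraries, a log2 fold change of 0.62 ± 0.08 (adjusted p-value 6.24e-06). CLDN1, a claudin of the tight junction, was at 124, 122, 171 and 81 CPM in WT and 296, 270.3, 238 and 343 CPM in mut libraries, and TJP3, a tight junction scaffold, at 9.17, 7.13, 12.4 and 3.29 CPM in WT and 20.0, 14.4, 18.5 and 17 CPM in mut libraries. Among 16 epithelial identity genes EPCAM was the one called (6.25%, against 12.7% of all genes). EPCAM was at 51.6, 46.9, 54.2 and 33.5 CPM in WT and 82.7, 74, 75.7 and 73 CPM in mut libraries, and it was not called without WT 27-2 and mut 1-2. CDH1, which encodes E-cadherin, was at 349.9 ± 96.8 CPM in WT and 415 ± 7.42 CPM in mut cells (adjusted p-value 0.495).

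Hemidesmosomes anchor basal cells to the basement membrane through laminins and integrin α6β4. Of 23 tested hemidesmosome, laminin and integrin genes 9 were DEGs (39.1%, against 12.7% of all genes), 6 lower and 3 higher. Without WT 27-2 and mut 1-2 there were 5 lower and 1 higher. COL17A1, a transmembrane collagen of hemidesmosomes, was at 897, 878, 773 and 1003 CPM in WT and 429, 549, 483 and 512 CPM in mut libraries, a log2 fold change of -0.85 ± 0.10 (adjusted p-value 6.16e-07). PLEC, the linker plectin, was at 1344, 1217, 1230.0 and 1298 CPM in WT and 969.6, 939, 1036 and 965 CPM in mut libraries. The integrin subunits ITGA6 and ITGA5 averaged 896 ± 157 and 206 ± 20.8 CPM in WT and 664 ± 74.6 and 142 ± 18.3 CPM in mut cells. ITGB4, the partner of ITGA6, moved the other way, from 1694 ± 123 to 2271 ± 396 CPM, although its call was lost without mut 65-1, mut 65-2, WT 2-2, WT 27-1 or WT 27-2 (adjusted p-value up to 0.166).

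Matrix and protease genes were called in both directions. Of 23 collagen and other matrix genes 8 were DEGs (34.8%, against 12.7% of all genes). Of these 5 were higher and 3 lower, and 6 were called in both clones. Without WT 27-2 and mut 1-2 the numbers were 4 higher and 3 lower. COL8A1, a short-chain collagen, was at 88.5, 81.5, 113 and 169.6 CPM in WT and 191, 201, 183 and 212 CPM in mut libraries. CCN2, a matricellular protein also known as CTGF, was at 29.7, 20.0, 46.4 and 77.8 CPM in WT and 68.8, 71, 90.2 and 91.3 CPM in mut libraries, with WT 27-2 inside the mut range. LOX, the collagen cross-linking enzyme of the EMT list, was at 10.7, 11.4, 8.93 and 8.75 CPM in WT and 21.5, 27.8, 20.2 and 26.6 CPM in mut libraries, a log2 fold change of 1.27 ± 0.22 in solvent and of -0.13 at 72 h. Of the 19 tested mesenchymal and EMT genes 4 were called (21.1%, against 12.7% of all genes), 3 higher and 1 lower. Without WT 27-2 and mut 1-2 there were 3 calls. The list median was -0.23 log2, and 7 of the 19 genes had a value above 0.

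Of 20 matrix protease and inhibitor genes 7 were DEGs (35%, against 12.7% of all genes), 5 lower and 2 higher. The fit without WT 27-2 and mut 1-2 called 3, 2 lower and 1 higher. PLAT, the tissue-type plasminogen activator, was at 127, 154, 124 and 62.9 CPM in WT and 263, 226, 320.2 and 284 CPM in mut libraries, a log2 fold change of 1.29 ± 0.20 (adjusted p-value 4.52e-05). PLAUR, the receptor of the urokinase-type activator, was at 20.8, 13.1, 28.1 and 27 CPM in WT and 11.7, 14.6, 12.9 and 9.55 CPM in mut libraries, with an overlap between WT 2-2 and mut 1-2. SERPINE2, an inhibitor of plasminogen activators, was at 48.9, 35.2, 50.3 and 93.8 CPM in WT and 19.4, 56.7, 19.3 and 17.4 CPM in mut libraries, again with mut 1-2 inside the WT range. SERPINB5, known as maspin, averaged 741 ± 70.5 CPM in WT and 549.9 ± 35 CPM in mut cells, and MMP9, a gelatinase, 3.92 ± 1.71 and 0.877 ± 1.1 CPM. The call of SERPINB5 was lost without mut 65-2, WT 2-1, WT 27-1 or WT 27-2 (adjusted p-value up to 0.0862), and that of MMP9 without any 1 library other than mut 1-2 and WT 2-2 (up to 0.0798).

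Cytokine genes split evenly, with 8 DEGs among 22 tested (36.4%, against 12.7% of all genes), 4 higher and 4 lower. Without WT 27-2 and mut 1-2 there were 3 higher and 4 lower. IL1B, a central inflammatory cytokine, was at 43.6, 35.6, 38.4 and 52.8 CPM in WT and 11.9, 17.6, 14 and 20.0 CPM in mut libraries, a log2 fold change of -1.43 ± 0.28 (adjusted p-value 0.000736). CSF3, the granulocyte colony-stimulating factor, was at 32.9, 22.8, 25.1 and 33.9 CPM in WT and 15.7, 18.2, 10.9 and 13.2 CPM in mut libraries. CSF1, the growth factor of macrophages, was higher instead, at 15.1, 17.4, 18.3 and 15.8 CPM in WT and 40.8, 43.5, 37.7 and 47.7 CPM in mut libraries, a log2 fold change of 1.35 ± 0.13 (adjusted p-value 3.43e-08). CXCL2, a neutrophil chemokine, was at 4.62, 4.16, 4.8 and 4.77 CPM in WT and 11.6, 11.2, 6.73 and 12 CPM in mut libraries, with its lowest mut value in 65-1. ICAM1, a leukocyte adhesion receptor from the list of immunoglobulin-type adhesion genes, was at 58.2, 65.6, 60.1 and 53 CPM in WT and 98, 106, 75.8 and 152 CPM in mut libraries. Of 12 tested genes of that list 5 were called (41.7%, against 12.7% of all genes), 2 higher and 3 lower. The same numbers were found without WT 27-2 and mut 1-2.

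EGF in the medium signals through ERK, whose feedback inhibitors and early targets were listed next. Of 18 tested genes 7 were DEGs (38.9%, against 12.7% of all genes), 4 higher and 3 lower. Of these 5 were called in both clones, and the list median was near 0 (-0.00035). Without WT 27-2 and mut 1-2, 6 were called. EGR1, an immediate early transcription factor, was at 247, 227, 181 and 186 CPM in WT and 362, 351, 333 and 512 CPM in mut libraries, a log2 fold change of 0.88 ± 0.17 (adjusted p-value 0.00055). DUSP6, a cytoplasmic ERK phosphatase, was at 289, 295, 259 and 277 CPM in WT and 373, 369.9, 407 and 489 CPM in mut libraries, and SPRY2, a feedback inhibitor of receptor tyrosine kinases, at 39.6, 43.6, 44.2 and 29.8 CPM in WT and 57.1, 53.7, 58.6 and 64.5 CPM in mut libraries. DUSP4, a nuclear ERK phosphatase, was lower, at 245, 200.2, 225 and 264 CPM in WT and 146, 156, 177 and 152 CPM in mut libraries. EGF receptor genes and ligands had 2 calls among 11 tested (18.2%, against 12.7% of all genes), both lower, and 0 without WT 27-2 and mut 1-2.

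The cell cycle list had 0 DEGs among 26 tested genes by limma-voom, with a median of -0.13 log2, and 0 by the quasi-likelihood test of edgeR and the Wald test of DESeq2. At an unadjusted p-value under 0.05, 2 of the 26 passed. Of 19 alternative settings 14 called 0 and 5 called 1, among the latter the fits without mut 65-1 and without WT 2-2, and 22 of the 26 genes had a value below 0. Regulators of the G1 phase had 4 DEGs of 13 tested (30.8%, against 12.7% of all genes). Of these 3 were called in both clones, and there were 3 DEGs without WT 27-2 and mut 1-2. CDKN1A, the CDK inhibitor p21, was at 455, 454, 427 and 448 CPM in WT and 263, 294, 273 and 314 CPM in mut libraries, a log2 fold change of -0.64 ± 0.07 (adjusted p-value 6.44e-07). The 4 WT libraries of CDKN1A lay close together and above all mut libraries. CDKN1C, the CDK inhibitor p57, was at 14.1, 7.71, 8.35 and 3.34 CPM in WT and 27.2, 16.7, 23.1 and 14.7 CPM in mut libraries, and its call was lost without WT 27-2 (adjusted p-value 0.0537). CCND1, which encodes cyclin D1, averaged 320.2 ± 14.9 CPM in WT and 245 ± 17 CPM in mut cells, and CCND3, for cyclin D3, 176 ± 5.95 and 212 ± 10.9 CPM.

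Components of TGFβ signalling were examined because parallel cultures of the clones were exposed to TGFβ1. Of 34 tested genes 7 were DEGs (20.6%, against 12.7% of all genes), 3 higher and 4 lower. Without WT 27-2 and mut 1-2 there were 2 higher and 4 lower. LTBP1, which tethers latent TGFβ to the matrix, was at 311, 315, 282 and 412 CPM in WT and 200.2, 233, 218 and 227 CPM in mut libraries. FSTL3, an extracellular antagonist of activins, was at 144, 100.0, 129 and 149 CPM in WT and 68.9, 90.0, 82.9 and 67.7 CPM in mut libraries, and ID3, a BMP target, at 48.3, 36.7, 53.8 and 47.4 CPM in WT and 27.8, 27.7, 28.9 and 29.9 CPM in mut libraries. ACVR1B, an activin receptor, was higher, at 33.2, 36.7, 36 and 34.8 CPM in WT and 44.8, 49.3, 42.9 and 55.7 CPM in mut libraries. In the NOTCH list 3 of 16 tested genes were DEGs (18.8%, against 12.7% of all genes), 1 higher and 2 lower. Without WT 27-2 and mut 1-2 there were 2, both lower. HES2, a transcriptional repressor of the HES family, was at 78.2, 47.2, 81.1 and 80.4 CPM in WT and 26.2, 26.3, 31.2 and 27 CPM in mut libraries, a log2 fold change of -1.35 ± 0.17 (adjusted p-value 1.76e-06). NOTCH3, a receptor, was at 53.5, 28.1, 34.4 and 9.76 CPM in WT and 12.3, 8.15, 8.19 and 7.84 CPM in mut libraries, with WT 27-2 inside the mut range, and its call was lost without mut 1-2, mut 65-1, mut 65-2, WT 2-1 or WT 27-1 (adjusted p-value up to 0.0872).

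Whether the differences in solvent were found again in the treated libraries of the same clones was asked last. Between mut and WT, 6 h of TGFβ1 gave 3177 called genes (21.4%), 24 h gave 5492 (36.9%) and 72 h gave 5829 (39.2%). Of the 1887 solvent DEGs, 1436 (76.1%) had a call of the same direction after 6 h, 1227 (65.0%) after 24 h and 1208 (64.0%) after 72 h, while 0, 32 and 53 had the opposite one. In all, 992 (52.6%) were called in the same direction at all 3 times and 237 at none. Without WT 27-2 and mut 1-2, 691 of 1093 DEGs were called at all 3 times. Among the 818 both-clone DEGs the number at all 3 times was 557 (68.1%). The libraries of these comparisons are separate from the solvent libraries, but the clones are the same.

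Named genes differed in this respect. HES2 kept differences of -1.53, -1.26 and -1.56 log2 at 6, 24 and 72 h, and COL17A1 of -1.03, -1.31 and -1.48, all called. CHI3L1 was called at 6 and 24 h (3.32 and 2.25) and had 0.36 at 72 h without a call. JUN had 0.37, 0.40 and 0.22, with a call at 24 h only. CXCL2 was higher in mut cells at 6 h (1.04) and lower at 72 h (-0.88), both called.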

How the data were processed

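TruSeq RNA v2 libraries of MCF10A clones were sequenced as paired reads. The authors trimmed reads with Trimmomatic, aligned them with STAR to the Ensembl GRCh38 genome and deposited raw counts per gene. Whether counting used strand is not given in the sources used here. Of 17788 genes, 14865 passed filterByExpr (minimum count 10, minimum total 15). All 32 libraries were fitted with limma-voom (limma 3.58.1, edgeR 4.0.16, R 4.3.3) with a term per genotype and time, scaled by library total, and Benjamini-Hochberg adjusted p-values under 0.05 were called. A fit of the 8 solvent libraries alone had 1525 DEGs. A fit with a term per clone and time gave each mut clone against the mean of both WT clones. Solvent totals of 39702412 to 49722991 counts put 3 counts at 0.0603 to 0.0756 CPM, a floor that covers counting error only. Alternatives were DESeq2 1.42.0, edgeR, other scalings and filters, clone-level fits and left-out libraries. Coordinates are those of GENCODE on GRCh38.

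Members, gene lists and tests were chosen with earlier results of these data known. Named genes were JUNB, the 14 DEGs each way with the largest log2 fold change that had a symbol, at least 10 CPM in the higher group, no overlap and calls in both mut clones, and up to 6 DEGs of each list with further members whose role is stated. Some items that the rule names are not reported here. No 2 libraries agreed within sampling noise. The fits were run on simulated counts drawn without differences between clones of a genotype. This run cannot address the limit of 2 clones a genotype.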

Additional observations from a re-analysis of the deposited data

Results flagged for a closer look

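Of 188 groups of 4 libraries examined, 12 had 1 library whose gap to the nearest other exceeded Dixon's critical share of the range for 4 values, where chance gives about 1 in 20. WT 27-2 was lowest for FOSL2 (106 CPM, others 149 to 158), CHI3L1 (0.351 CPM, others 2.18 to 2.64) and KRT5 (5234 CPM, others 6452 to 6697). WT 2-2 was lowest for GRAMD1B (12.4 CPM, others 18.4 to 19.4), MMP9 (1.36 CPM, others 4.57 to 5.00) and HES2 (47.2 CPM, others 78.2 to 81.1). WT 27-1 was highest for ACSL5 (2.45 CPM, others 2.05 to 2.07).

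Mut 1-2 was highest for HS3ST3A1 (3.8 CPM, others 1.08 to 1.09) and SERPINE2 (56.7 CPM, others 17.4 to 19.4). Mut 1-1 was lowest for TMCC3 (2.56 CPM, others 3.76 to 4.07) and highest for NOTCH3 (12.3 CPM, others 7.84 to 8.19). Mut 65-1 was lowest for CXCL2 (6.73 CPM, others 11.2 to 12).

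Clones of 1 genotype differed in 2 of the 93 genes selected for description, by the limma-voom test of the difference between clones. NEDD9 was higher in mut clone 65 than in mut clone 1 by 1.02 log2 (means 37.3 and 18.6 CPM), and CCN2 was higher in WT clone 27 than in WT clone 2 by 1.28 log2 (means 62.1 and 24.9 CPM).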

How the results depend on the processing

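The 28 named genes kept direction and call in 532 of 532 alternative values (highest adjusted p-value 0.0168). They were chosen for large and separated differences in the same libraries, so this count describes them and is no test. The 1887 DEGs became 495 with an absolute log2 fold change of at least 1, 1093 without WT 27-2 and mut 1-2, 1260 with the replications of a clone summed and 1246 (without mut 65-2) to 1818 without 1 library. The 818 both-clone DEGs became 265 with the fold limit, 301 without WT 27-2 and mut 1-2 and 336 to 759 without 1 library. Other rules, applied to DEGs called from the same libraries, gave 1573 (no overlap) and 1884 (same sign of the 4 clone differences). The 42 genes between mut clones became 25, 24 and 16 to 44, and the 80 between WT clones 35, 7 and 10 to 72, in the same order of settings. WT clone differences fell under every left-out WT library. The 992 DEGs called at all 3 times became 237 with the fold limit and 757 to 979 without 1 library. JUNB lay at -0.14 without mut 65-2 (adjusted p-value 0.866), and its range without 1 library was -0.14 to 0.30.

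Deviations from the group means were correlated between mut and WT libraries. The correlations were -0.108 to 0.253 for equal replication numbers and -0.138 to 0.0551 for different ones. These ranges overlap, the highest value was that of WT 27-2 with mut 1-2, and whether the numbers pair the libraries was not tested. With the replication number as a replicate block there were 2176 DEGs, 1047 both-clone DEGs, 57 and 111 clone differences and 1106 DEGs called at all 3 times. Of 1120 alternative values of 59 called list genes, 994 kept the call, 126 lost it (35 by the fold limit) and 0 reversed, and of 114 values of 6 list genes not called 3 gained a call. ATF4 targets ranged from 0 to 15 calls.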

Other observations

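Detoxifying enzymes of the NRF2 list were higher where called (4 of 18 tested, 22.2%, against 12.7% of all genes). Of these 3 were called in both clones, and 4 genes were called without WT 27-2 and mut 1-2. AKR1C2, an aldo-keto reductase that converts steroids, was at 45.2, 76.5, 33.9 and 58.9 CPM in WT and 150.1, 145, 134 and 112 CPM in mut libraries, 1.40 ± 0.23 on the log2 scale (limma-voom, adjusted p-value 9.09e-05). AKR1C3 averaged 56.6 ± 16.9 CPM in WT and 106 ± 10.8 CPM in mut cells, and AKR1C1 35.6 ± 13.9 and 67.5 ± 7.86 CPM. These genes are close copies, so reads could have been assigned to a relative. AKR1C1 was not called without WT 27-1 (adjusted p-value 0.0878).

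Of 24 interferon-stimulated genes 1 was called (4.17%, against 12.7% of all genes). This was IRF1, at a mean of 23.8 CPM in WT and 35.1 CPM in mut cells. In the hypoxia and glycolysis list 2 of 25 were called, both lower (8%, against 12.7% of all genes), and 1 without WT 27-2 and mut 1-2, with 0 to 4 over all alternatives. CA12, a carbonic anhydrase of this list, was at 161, 131, 119 and 118 CPM in WT and 90.3, 75.2, 82.2 and 65.3 CPM in mut libraries. In the sterol and fatty acid synthesis list 3 of 23 were called (13.0%, against 12.7% of all genes), 1 higher and 2 lower, and 0 without WT 27-2 and mut 1-2. Of 22 ATF4 target genes 2 were called (9.09%, against 12.7% of all genes), both higher, and 1 without WT 27-2 and mut 1-2. The list median was 0.42 log2, and 15 were called when the replications of a clone were summed.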
